A study of Bos taurus with 9 samples.

Results

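The granulosa transcription factors described here are FOXL2, NR5A1, NR5A2, NR0B1, GATA4, GATA6, WT1, RUNX2, TCF21 and LHX9, a set of 10 genes. Several are known for setting and keeping granulosa cell fate or for driving steroid and peptide hormone genes. NR0B1 is a repressor, and TCF21 is known from mesenchymal cells. Every probe whose gene symbol in the platform table was one of these names was taken. The rule found 12 probes of 8 genes among 43794 probes, with 3 probes for NR5A2, 3 for WT1 and 1 for each of FOXL2, NR5A1, NR0B1, GATA4, TCF21 and LHX9. GATA6 and RUNX2 were not analysed here. All 12 probes passed the filter on dim spots, which kept 38823 probes (88.6%) for testing.

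Granulosa cells line the follicle, surround the oocyte and make oestradiol and inhibin. Holstein-Friesian cows gave the cells, which were drawn from dominant follicles before ovulation by ovum pick-up 42 hours after PGF2alfa was injected to end the luteal phase. RNA of cells at 30, 60 or 90 days after calving was labelled with Cy5 and hybridised against RNA of cells at 120 days after calving in Cy3. Each of 9 arrays carried 1 biological replicate, with 3 arrays per day, and all animals shared breed and hormone treatment. The RNA had been amplified by 2 rounds of T7 transcription. The dyes were never swapped between arrays, so dye bias of a probe and a difference from 120 days cannot be told apart. The cells were spun down and washed, and the labels give no sort by cell type.

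Several facts about the arrays bear on the values. A spot is called above background here when its mean signal was over the negative controls' mean by more than 2 SD. Between 29.8% and 82.3% of probes were above background in Cy5, and between 20.9% and 84.2% in Cy3. On 60 days replicate 3, which had the lowest Cy3 share, the threshold stood at 800.2, so that many 120-day spots counted as dim on that array only. On 30 days replicate 1, which had the lowest Cy5 share, the Cy5 threshold was 204.3. From the median and median absolute deviation of the controls it would be 105.5. Counts of 30-day spots above background may therefore be too low. The 120-day channels were clustered by their correlation into 3 sets, a number given to the clustering. Each set came out with 3 arrays, 1 of every day. Pearson r over probes was 0.966 to 0.991 within sets and 0.881 to 0.956 between them, an order that the clustering itself favours. The labels do not say which 120-day RNA each array carried. Of the 9 columns of the authors' value table, 5 correlated above 0.7 with an array other than their own, 3 of them of another day. Each array file was assigned by its own name, and every comparison of days rests on that.

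As background, these factors act in layers. GATA4, a zinc finger protein, WT1, another zinc finger protein, and LHX9, a LIM homeobox protein, are needed for the early gonad in mice. NR5A1 (SF-1) and NR5A2 (LRH-1) are related nuclear receptors that bind the same DNA motif in steroidogenic genes such as CYP11A1, STAR and CYP19A1, and NR0B1 (DAX1) represses them. NR5A2 is the more abundant of the pair in rodent granulosa cells and is needed for ovulation in mice. FOXL2, a forkhead protein, keeps granulosa cells from taking on a Sertoli cell fate in mice. TCF21 is a basic helix-loop-helix protein of mesenchymal cells in kidney, lung and gonad.

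TCF21 was the 1 gene of the set that passed the test, and it did so at 60 days. Its 60-day signal was 1487, 2349 and 1716 on the 3 arrays, against 120-day signals of 564, 320.4 and 516 on the same arrays. The log2 ratio of 60 over 120 days was 2.08, 3.70 and 2.74. All 3 day signals lay above all 9 of the 120-day signals, which ran from 234.4 to 564 over the series. These signals are before normalisation, and the 9 fall into 3 sets of like 120-day channels, so they may not be 9 separate RNAs. TCF21 averaged 11.02 ± 0.26 at 60 days and 8.18 ± 0.56 at 120 days on the log2 scale of normalised signal (SD, n = 3 each). The mean log2 ratio was 2.84 ± 0.34 (SE, n = 3), a 7.15-fold higher level with a 95% confidence interval of 4.15 to 12.3 fold (limma, adjusted p = 0.00803). Of 12 probes of the set, 1 passed in a comparison that called 14.2% of all probes (5511 of 38823), so the count is no result about the set. Among the 869 genes that were higher at 60 days (6.09% of 14281 genes, each by its brightest probe), TCF21 ranked 4 by size.

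At 30 and 90 days TCF21 did not pass the test. At 30 days its signal was 259.2, 181.9 and 197 against 400.8, 288 and 525.9 at 120 days, and its log2 ratios were 0.12, 0.43 and -0.14. After normalisation the 30-day and 120-day levels overlapped, with a mean ratio of 0.14 ± 0.34 (limma, adjusted p = 0.834). At 90 days its signal was 151.8, 1190 and 677 against 234.4, 490.1 and 362.9 at 120 days, with log2 ratios of 0.08, 1.37 and 1.16. Replicate 1 lay near 0 and the other two arrays above 1, and the mean of 0.87 ± 0.34 did not pass (limma, adjusted p = 0.403).

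The order of TCF21 levels was therefore 60 days above 90 days, 90 days above 30 days, and 30 days beside 120 days. The 3 ratios of 60 days lay above all 6 ratios of 30 and 90 days, a separation that was not counted over other probes. The difference of 60 minus 30 days was 2.70 ± 0.47 on the log2 scale (adjusted p = 0.343 by limma, unadjusted 0.000615). That of 90 minus 60 days was -1.97 ± 0.47 (adjusted p = 0.383, unadjusted 0.00383), and that of 90 minus 30 days was 0.73 ± 0.47 (adjusted p = 0.835). None of these passed, in comparisons that called 0% of all probes, so among the 3 days no neighbours in this order were separated by the test.

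The call at 60 days was lost in 2 settings. Without 60 days replicate 3 the log2 ratio was 2.89 with an adjusted p of 0.0534, and with the 60-day arrays fitted alone the adjusted p was 0.0585 (both limma). These fits called 232 and 0 of all 38823 probes. TCF21 is also known from stromal cells, and markers of theca and stroma had medians of -1.43, -0.98 and -0.22 on the 3 60-day arrays, below 120 days. With each array's granulosa marker median taken as a covariate, the TCF21 value was 2.55 ± 0.35 (limma, adjusted p = 0.0253). That fit reads the value where the marker median shows no difference from 120 days, while the 60-day medians were 0.64, 1.89 and 1.56. ESR2, the gene that ran closest to TCF21 (Pearson r = 0.993), is one of the markers in that median. The part of stromal or granulosa cells in the TCF21 ratio was not tested.

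**Figure D1:**
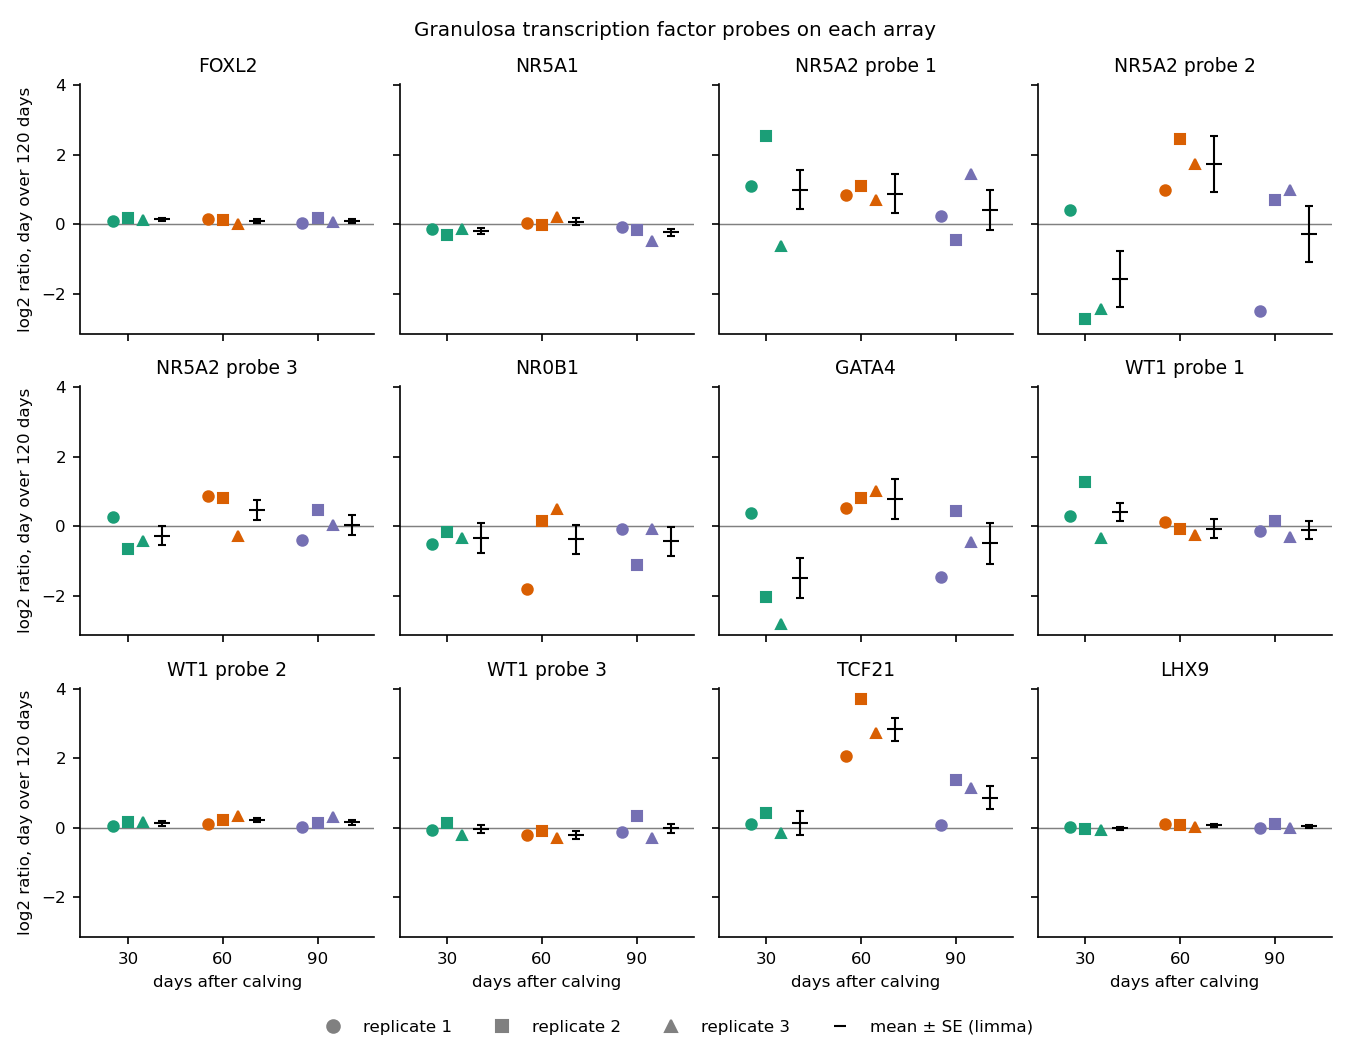
Log2 ratio of each day over 120 days for the 12 probes, by array. Symbols are replicates 1 to 3 of each day, and the bar beside them is the limma mean ± SE (n = 3). The 3 TCF21 points of 60 days lie between 2.08 and 3.70, above all other TCF21 points, while GATA4 and NR5A2 probe 2 spread widely at 30 and 90 days and FOXL2 and LHX9 stay near 0.

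GATA4, which activates promoters of STAR, CYP19A1 and the inhibins, was well above background in both channels on all 9 arrays. At 30 days its signal was 6746, 777.6 and 810.4 against 5712, 5413 and 6392 at 120 days. At 60 days it was 8630, 10439.9 and 8607 against 5957, 6605 and 4030. At 90 days it was 2574, 11984 and 2528 against 8836, 8922 and 4955. The 120-day signals of GATA4 stayed within 2.21-fold of each other over the 9 arrays, whereas the day signals spanned 15.4-fold. The 120-day channels formed 3 sets and may hold fewer separate RNAs than the day channels, so these spans are not of like groups. The log2 ratios were 0.39, -2.05 and -2.82 on the 30-day arrays, 0.52, 0.81 and 1.01 on the 60-day arrays, and -1.47, 0.43 and -0.45 on the 90-day arrays.

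The mean GATA4 ratio was -1.49 ± 0.59 at 30 days (limma, adjusted p = 0.221), 0.78 ± 0.59 at 60 days (adjusted p = 0.391) and -0.49 ± 0.59 at 90 days (adjusted p = 0.754). None passed, and the 95% interval at 30 days, -2.87 to -0.12, covers values from little change to a severalfold lower level. The 30-day value was carried by replicates 2 and 3, since replicate 1 lay above 0. GATA4 at 60 days was 2.27 ± 0.83 above 30 days on the log2 scale (limma, adjusted p = 0.371, unadjusted 0.0276). The ratios of these 2 days did not overlap, but how many other probes separate in this way was not counted. In that comparison 12.2% of all probes had an unadjusted p under 0.05 (limma).

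NR5A2 was read by 3 probes, and they disagreed. Probe 1, the brightest by mean over all arrays and both channels, gave log2 ratios of 1.09, 2.53 and -0.64 on the 30-day arrays, 0.83, 1.11 and 0.69 on the 60-day arrays, and 0.24, -0.47 and 1.45 on the 90-day arrays. Probe 2 gave 0.42, -2.72 and -2.43 on the 30-day arrays, 0.99, 2.45 and 1.75 on the 60-day arrays, and -2.49, 0.69 and 0.98 on the 90-day arrays. Probe 3 stayed between -0.67 and 0.87. On 30 days replicate 2, probe 1 was thus at its highest ratio of the series and probe 2 at its lowest. Over the 9 arrays Pearson r was 0.04 between probes 1 and 2, -0.11 between probes 1 and 3 and 0.76 between probes 2 and 3. All 3 probes were above 0 on average at 60 days, and the sources used here do not say which part of the transcript each reads.

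None of the NR5A2 probes passed. At 60 days the mean log2 ratios were 0.88 ± 0.57 for probe 1 (limma, adjusted p = 0.320), 1.73 ± 0.81 for probe 2 (adjusted p = 0.189) and 0.46 ± 0.28 for probe 3 (adjusted p = 0.290). At 30 days they were 0.99 ± 0.57, -1.58 ± 0.81 and -0.28 ± 0.28, with adjusted p of 0.340, 0.301 and 0.571. At 90 days they were 0.41 ± 0.57, -0.27 ± 0.81 and 0.03 ± 0.28, with adjusted p of 0.790, 0.911 and 0.977. For probe 2 the difference of 60 minus 30 days was 3.31 ± 1.15 (limma, adjusted p = 0.365, unadjusted 0.0224). Its 3 60-day ratios lay above all 3 of 30 days, in a comparison where 12.2% of all probes had an unadjusted p under 0.05 (limma).

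**Figure D2:**
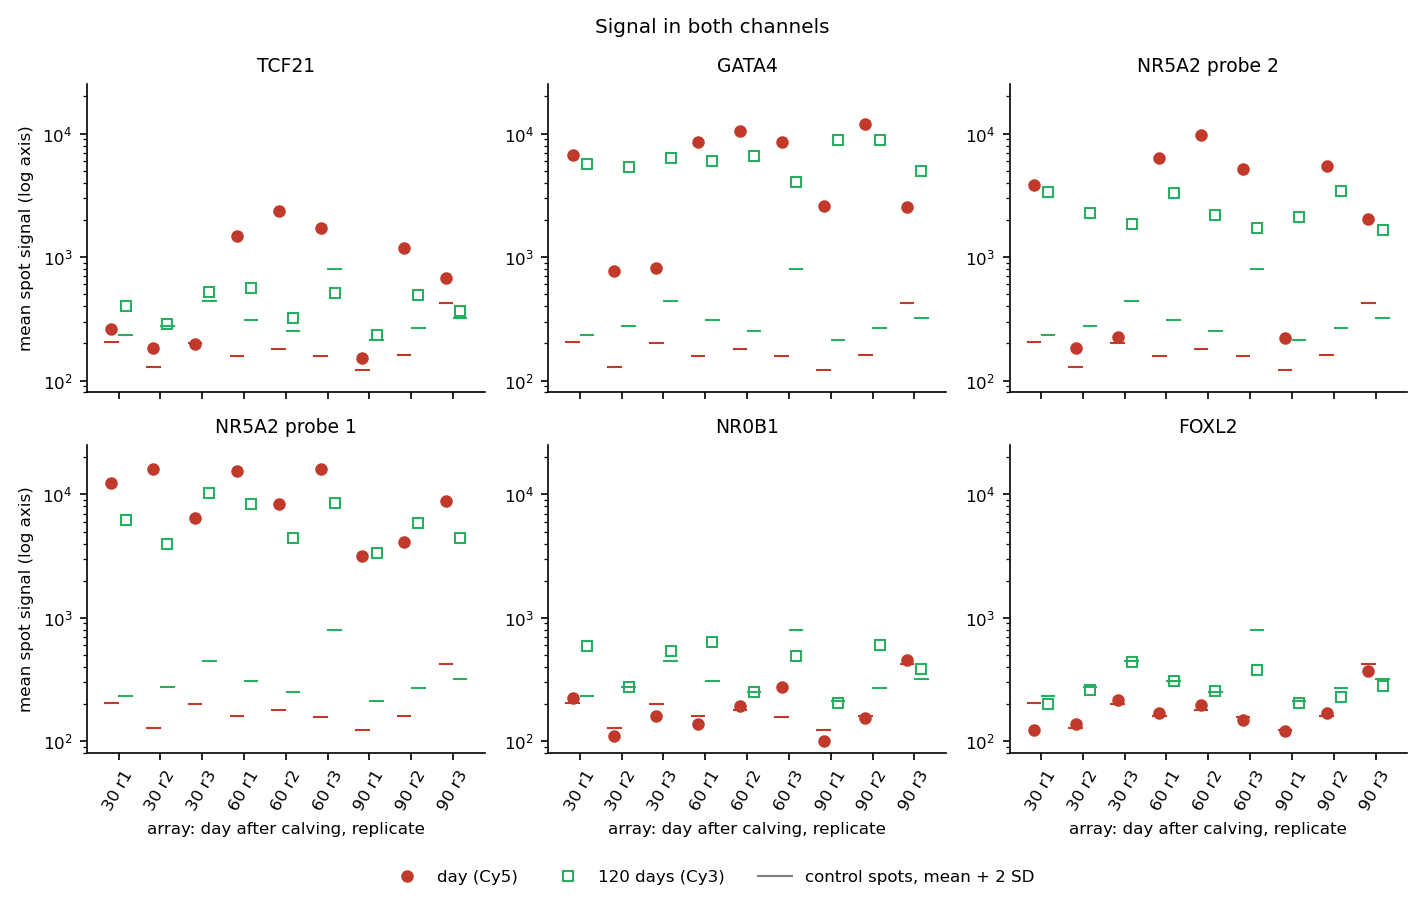
Mean spot signal (log axis) of 6 probes on the 9 arrays, filled circles for the day RNA in Cy5 and open squares for the 120-day RNA in Cy3. Short lines mark the control spot threshold of each channel. The NR5A2 probe 2 circles drop to 183.6, 225.1 and 222 on 30 days replicates 2 and 3 and 90 days replicate 1, the GATA4 circles are lowest on 30 days replicates 2 and 3, and FOXL2 and NR0B1 lie near the lines.

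The ratios of GATA4 and NR5A2 probe 2 were lowest on the same 3 arrays, 30 days replicates 2 and 3 and 90 days replicate 1, and had r = 0.926 over the 9 arrays. On these arrays the day signal of NR5A2 probe 2 was 183.6, 225.1 and 222, against 2271, 1867 and 2124 at 120 days. The same arrays had the lowest granulosa marker medians, -3.31, -2.89 and -2.82 over 13 markers, the 10 factors left out. On the other 6 arrays the granulosa median ran from 0.24 to 1.89.

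The macrophage and monocyte markers ran the opposite way. Their median over 14 measured of 15 markers was 2.48, 1.91 and 2.08 on those 3 arrays and -1.23 to 0.56 on the other 6. All 14 were above background there in the day channel. The summed macrophage marker signal of the day RNA was 142819, 157055 and 128220 there against 33072, 46592 and 32195 at 120 days. The summed granulosa marker signal of the day RNA was 11065, 10308 and 21747 on the same arrays against 167991, 155263 and 162885 at 120 days. Granulosa markers were still above background there, 10, 11 and 12 of 13.

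In such bulk samples, fewer cells of a type and less RNA per cell cannot be told apart. These 3 arrays held the lowest ratios of GATA4 and NR5A2 probe 2, so leaving them out could only raise their means at 30 and 90 days. Without these 3 arrays the 30-day value rests on replicate 1 alone, and GATA4 then stood at 0.39 and NR5A2 probe 2 at 0.42. At 90 days NR5A2 probe 2 then stood at 0.83 (limma, adjusted p = 0.750). With the granulosa marker median as a covariate, GATA4 was -0.33 at 30 days and -0.05 at 60 days, and NR5A2 probe 2 was 0.16 and 0.49. These values are read where the marker median shows no difference from 120 days. INHBA, the gene that ran closest to GATA4 (Pearson r = 0.991), is one of the markers in that median. The part of cell composition in these ratios was not tested.

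TCF21 ran partly along with this pattern, with r = 0.833 to NR5A2 probe 2 and 0.747 to GATA4 over the 9 arrays. Its ratio on the 3 arrays with the low granulosa medians was 0.43, -0.14 and 0.08. On 30 days replicate 1, whose granulosa median was 0.44, it was 0.12, and on the other 5 arrays it was 1.16 or higher. NR5A2 probe 1 departed from the pattern, with 2.53, -0.64 and 0.24 on those 3 arrays.

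**Figure D3:**
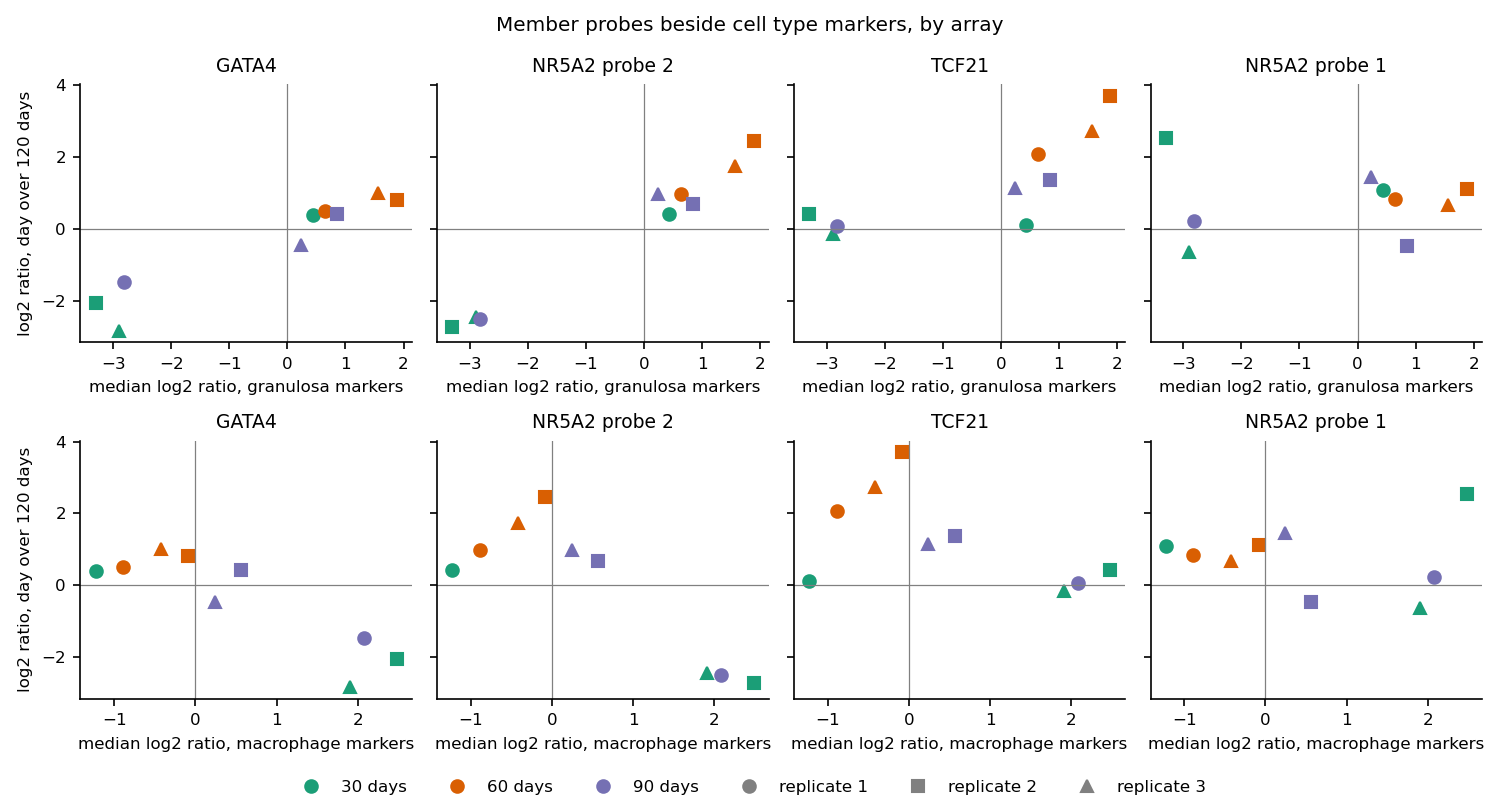
Log2 ratio of 4 probes (vertical) against the median log2 ratio of 13 granulosa markers (top) and 14 macrophage and monocyte markers (bottom), 1 point per array. Colours are days and symbols are replicates. The 3 arrays with granulosa medians below -2.8 hold the 3 lowest GATA4 and NR5A2 probe 2 ratios, while NR5A2 probe 1 has its highest ratio, 2.53, on one of them.

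NR5A1, the steroidogenic factor that shares its binding motif with NR5A2, was above background in the day RNA on all 9 arrays and at 120 days on 8. Its day signal was between 165.1 and 452.5 and its 120-day signal between 333.8 and 618.3. The log2 ratios were -0.13, -0.32 and -0.13 on the 30-day arrays, 0.03, -0.01 and 0.21 on the 60-day arrays, and -0.07, -0.16 and -0.48 on the 90-day arrays. All 6 ratios of 30 and 90 days lay below 0 and below the lowest of 60 days, and how many other probes separate in this way was not counted. The mean was -0.19 ± 0.09 at 30 days (limma, adjusted p = 0.268), 0.08 ± 0.09 at 60 days (adjusted p = 0.588) and -0.24 ± 0.09 at 90 days (adjusted p = 0.402). The 95% interval at 30 days was -0.40 to 0.02, and that of 90 minus 60 days was -0.61 to -0.01 (limma, adjusted p = 0.4998).

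NR0B1, the co-repressor of NR5A1 and NR5A2, was above background on 4 of 9 arrays in the day RNA and on 6 at 120 days. Its log2 ratios were -0.51, -0.17 and -0.36 on the 30-day arrays, -1.81, 0.15 and 0.50 on the 60-day arrays, and -0.10, -1.12 and -0.09 on the 90-day arrays. The means were -0.35, -0.39 and -0.43, each ± 0.42 (limma, adjusted p = 0.647, 0.552 and 0.702). All 3 of the 95% intervals included 0, that at 90 days running from -1.42 to 0.55, and without 60 days replicate 1 the 60-day value turned to 0.32 (adjusted p = 0.497).

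The 3 lowest NR0B1 ratios fell on the 3 arrays of 1 set of 120-day channels. By these sets, its 120-day signal was 595.7, 638.2 and 597.8 on 30 days replicate 1, 60 days replicate 1 and 90 days replicate 2. It was 273.9, 252.8 and 203.1 on 30 days replicate 2, 60 days replicate 2 and 90 days replicate 1. It was 539.5, 488.6 and 384.2 on replicate 3 of each day. The first of these sets had the highest normalised NR0B1 level at 120 days, 9.02 ± 0.12, against 7.60 ± 0.07 and 7.97 ± 0.05 in the other two (log2, SD, n = 3 arrays).

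The 120-day channels of the sets also differed for other factors. TCF21 had normalised 120-day levels of 8.71 ± 0.14 in the first set, 7.69 ± 0.11 in the next and 8.03 ± 0.22 in the last. NR5A2 probe 2 had 11.65 ± 0.09, 10.64 ± 0.14 and 10.57 ± 0.11 in the same order. For GATA4 the sets overlapped, at 12.64 ± 0.40, 12.42 ± 0.58 and 12.27 ± 0.32. The sets were made from the 120-day signals of all probes on these same arrays and not from labels, so these values are a description.

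**Figure D4:**
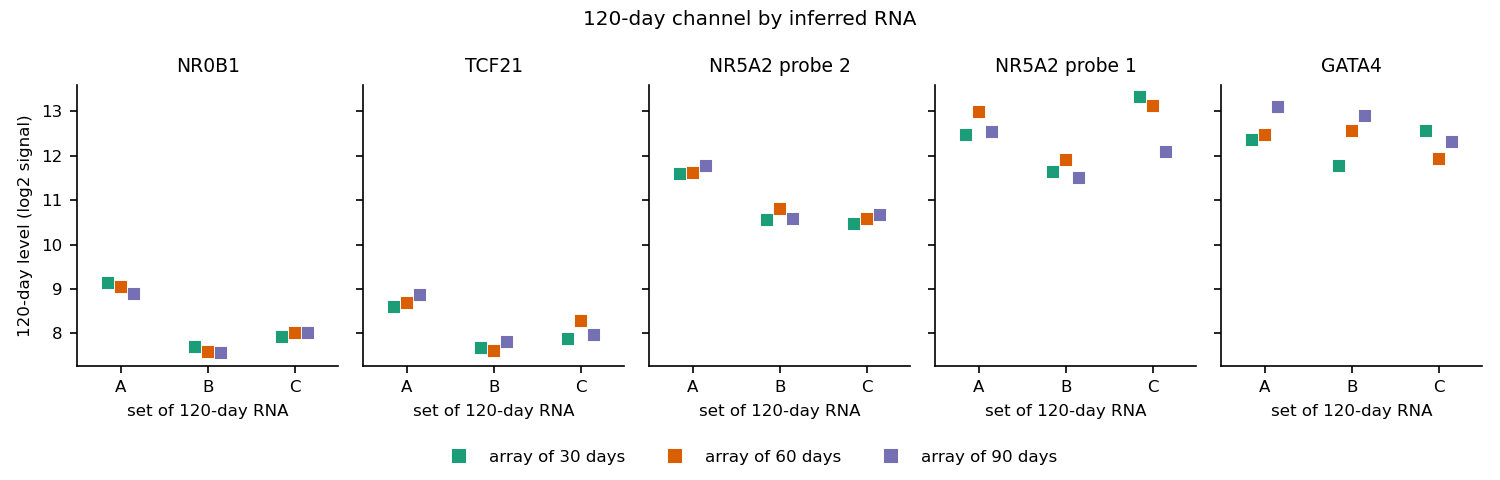
Normalised 120-day level (log2 signal) of 5 probes by set of 120-day RNA, 1 square per array, coloured by the day hybridised beside it. For NR0B1 the 3 squares of set A average 9.02, above those of sets B (7.60) and C (7.97), while the GATA4 sets overlap.

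WT1, the zinc finger factor of the early gonad that also marks granulosa cells of small follicles, was read by 3 probes near background. Probe 1 gave log2 ratios of 0.30, 1.28 and -0.34 at 30 days and stayed between -0.32 and 0.15 at 60 and 90 days. Its mean was 0.41 ± 0.27, -0.07 ± 0.27 and -0.11 ± 0.27 at 30, 60 and 90 days (limma, adjusted p = 0.394, 0.871 and 0.887), and without 30 days replicate 2 the 30-day value was -0.02. Probe 3 stayed between -0.31 and 0.35 and had means of -0.04, -0.21 and -0.02, each ± 0.12 (limma, adjusted p = 0.871, 0.280 and 0.961).

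Probe 2 of WT1 was above 0 on all 9 arrays, from 0.04 to 0.35. Its mean ratio at 60 days was 0.23 ± 0.07 (limma, adjusted p = 0.0705, 95% interval 0.06 to 0.39). With array weights this value was 0.24 and passed (adjusted p = 0.0402). At 30 days it was 0.13 ± 0.07 (adjusted p = 0.305). At 90 days its 120-day spots were not well above background on any array, so its ratio of 0.16 ± 0.07 gives no fold (adjusted p = 0.449). Over the 9 arrays Pearson r between probes 2 and 3 of WT1 was -0.43.

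FOXL2, a factor widely used to name granulosa cells, was hardly measured by its probe. Its day signal was 123.5, 137.4 and 216.4 on the 30-day arrays, 168.1, 195.8 and 147.8 on the 60-day arrays, and 121.1, 170.3 and 373.3 on the 90-day arrays. It was above background on 5 of 9 arrays in the day RNA and on 1 of 9 at 120 days. The log2 ratio was above 0 on all 9 arrays, between 0.01 and 0.19. The mean ratio was 0.14 ± 0.05 at 30 days (limma, adjusted p = 0.211), 0.09 ± 0.05 at 60 days (adjusted p = 0.255) and 0.09 ± 0.05 at 90 days (adjusted p = 0.532). No 120-day spot was well above background on the arrays of 30 and 90 days, so no fold is given there. The low FOXL2 signal stands beside 13 granulosa markers of which 10 to 13 were above background in the day RNA of each array, so this probe gives no check of cell identity.

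LHX9, the LIM homeobox factor of the early gonad, was above background on 3 arrays in the day RNA and on 2 at 120 days. Its log2 ratios lay between -0.05 and 0.12. The mean ratio was -0.02 ± 0.05 at 30 days (limma, adjusted p = 0.855), 0.07 ± 0.05 at 60 days (adjusted p = 0.363) and 0.04 ± 0.05 at 90 days (adjusted p = 0.731). At 30 days no day spot, and at 60 days no 120-day spot, was well above background. A change in LHX9 or FOXL2 was not detectable at this signal.

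Across the set, 0 of 12 probes passed at 30 days, where 0.203% of all probes did, and 0 at 90 days, where 0.00258% did. At an unadjusted p under 0.05, 2 of 12 probes of the set passed at 30 days, 2 at 60 days and 2 at 90 days, beside 20.6%, 32.4% and 11.4% of all probes. Between days the counts were 3 of 12 for 60 minus 30 days, 2 for 90 minus 60 days and 0 for 90 minus 30 days, beside 12.2%, 9.79% and 5.48%. After adjustment limma called 0 of the 12 probes, and 0 of all probes, in each pair of days. The F test for any difference among 30, 60 and 90 days also called 0, and its smallest value in the set was that of TCF21 (adjusted p = 0.386 by limma, unadjusted 0.00163). The 3 comparisons with 120 days may share 120-day RNAs, which was read from like 120-day channels and not from labels, so they may not be separate.

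Relatives of the factors were read from a list of 22 genes of the same families, 18 of them measured. At 60 days 3 were higher and 1 lower, with a list median of -0.14 beside -0.05 over all genes. By gene, 6.09% of all genes were higher at 60 days and 7.05% lower, the shares to set beside each list below. FOXO1, a forkhead factor of growing follicles that FSH signalling restrains, had log2 ratios of 1.77, 1.94 and 1.13 and was 3.06-fold higher (1.61 ± 0.43, limma, adjusted p = 0.0471). RUNX3, a relative of RUNX2, rose by 0.41 ± 0.09 (adjusted p = 0.0266) and LHX8, known from oocytes, by 0.19 ± 0.05 (adjusted p = 0.0486). NR0B2 (SHP), the relative of NR0B1, was lower (adjusted p = 0.0455), with no 60-day spot above background.

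Partners and co-regulators of the factors held 26 measured of 30 genes, and 1 was higher and 3 lower at 60 days (median -0.02). PNRC2 and PNRC1, which bind nuclear receptors including NR5A1, fell by 1.22 ± 0.14 and 1.14 ± 0.21 on the log2 scale (limma, adjusted p = 0.00803 and 0.0187). WTAP, the WT1-associated protein of RNA methylation, fell by 0.68 ± 0.10 (adjusted p = 0.0116). SMAD4, the shared mediator of TGF-beta signals, rose by 0.45 ± 0.06 at 60 days (adjusted p = 0.00978) and by 0.58 ± 0.06 at 30 days (adjusted p = 0.0336). At 30 days SMAD4 was the only called gene among the families, partners, other regulators and hormone genes, where 0.098% of all genes were higher and 0.189% lower. At 90 days none of these lists held a call, and 0.007% of all genes were higher and 0% lower.

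**Figure D5:**
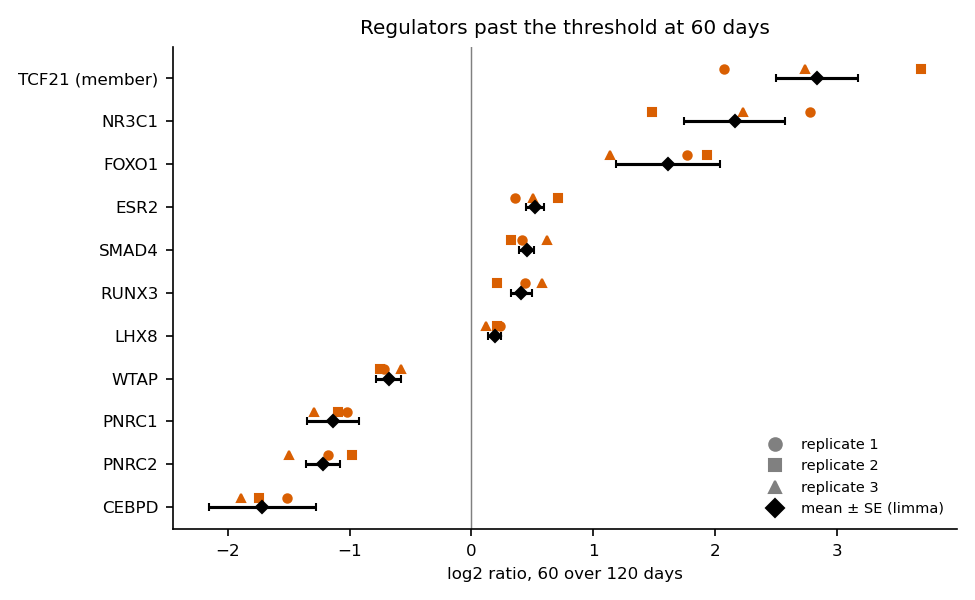
Log2 ratio of 60 over 120 days for TCF21 and the related regulators that passed the test, symbols for replicates 1 to 3 and diamonds with bars for the limma mean ± SE (n = 3). NR0B2 and CEBPA also passed, both lower, but are not drawn because no 60-day spot of theirs was above background. TCF21 (2.84), NR3C1 (2.16) and FOXO1 (1.61) lie farthest above 0, and CEBPD (-1.72), PNRC2 (-1.22) and PNRC1 (-1.14) farthest below.

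Among other regulators of the gonad and of ovulation, 28 of 36 were measured, and 2 were higher and 2 lower at 60 days (median -0.12). NR3C1, the glucocorticoid receptor, had log2 ratios of 2.78, 1.48 and 2.23 and was 4.48-fold higher (2.16 ± 0.41, limma, adjusted p = 0.0202). ESR2, through which oestradiol acts in granulosa cells, rose by 0.53 ± 0.07 (adjusted p = 0.0105). CEBPD, a leucine zipper factor, fell by 1.72 ± 0.44 (adjusted p = 0.0435). CEBPA, its relative, was lower too (adjusted p = 0.0131), with no 60-day spot above background.

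Of 29 steroid and peptide genes listed as known targets of the factors, 26 were measured, and 5 were higher and 1 lower at 60 days, with a list median of 0.60. Of all genes 6.09% were higher and 7.05% lower at 60 days, with a median of -0.05. At 30 and 90 days 0 of the list passed, with list medians of -0.19 and -0.05. LHCGR, the LH receptor, rose by 2.52 ± 0.34 (limma, adjusted p = 0.00947), AMH by 2.78 ± 0.42 (adjusted p = 0.0113) and AMHR2, the AMH receptor, by 1.04 ± 0.19 (adjusted p = 0.0175). PTGER2 and CGA, at 0.26 ± 0.07 and 0.17 ± 0.04, passed with adjusted p of 0.0435 and 0.0486, and the sixth was NR0B2. The 60-day arrays had granulosa marker medians of 0.64, 1.89 and 1.56, and the 3 called genes among those markers were AMH, AMHR2 and ESR2, so these calls are not separate from the granulosa count. Apart from PNRC1, PNRC2, WTAP and CEBPD, the regulators and hormone genes named for 60 days had 120-day spots above background on 2 of 3 arrays or fewer, with the high Cy3 threshold of replicate 3 among them.

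Markers of cell types were counted at 60 days in the same way, to be read beside 6.09% of all genes higher and 7.05% lower (median -0.05). Several of these counts are small and near those shares. Of 13 granulosa markers 3 were higher and 0 lower (median 1.07). Of 15 measured lymphocyte markers 6 were lower (median -1.73), of 9 neutrophil markers 3 were lower (median -1.46), of 16 epithelial markers 3 were lower (median -0.86), and of 12 theca and stroma markers 1 was lower (median -1.02). Of 14 macrophage and monocyte markers 0 passed (median -0.39), as did 0 of 9 endothelial markers (median 0.19), while 1 of 7 red blood cell markers was higher (median -0.23). Of 11 oocyte markers 2 were higher and 2 lower (median 0.00). The part of these cells in the changes of the factors was not tested.

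The genes whose ratios ran most like each factor over the 9 arrays were taken from all 14281 genes. This is a description of arrays that fall into 3 sets of like 120-day channels. TCF21 ran closest to ESR2 (Pearson r = 0.993), itself a granulosa marker here, whose ratios spanned 0.00 to 0.71, and to STAMBPL1 (0.982). GATA4 ran closest to INHBA (0.991), which encodes the activin and inhibin beta A chain and is also a granulosa marker here, and to MAP1A (0.981). NR5A2 probe 2 ran closest to TGIF2 (0.995) and LRP8 (0.991), and NR5A2 probe 1 to PRPSAP2 (0.999) and TWIST2 (0.999). For probe 1, 419 of 38822 other probes had r above 0.95, against 74 for probe 2, 35 for GATA4, 9 for TCF21 and 0 for FOXL2.

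For the dimmer probes the closest genes were CA11 (0.949) and TBC1D25 (0.948) for NR5A1, TMEM199 (0.959) and LOC533597 (0.942) for NR0B1, and DBNDD1 (0.968) and CHODL (0.966) for WT1 probe 1. FOXL2 ran closest to SDAD1 (0.859) and BMP4 (0.846), and LHX9 to MRPL10 (0.959) and GPX3 (0.948), over ratio ranges of their own of 0.18 and 0.17.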

How the data were processed

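The deposited array files hold, per the file headers, uncorrected mean and median pixel intensity and local background for each spot and channel. The scanner is not named in the sources used here. A value table that the authors deposited gives log2 values, whose scale, centring and direction stay unknown. Its column medians ran from -0.0208 to 0.0257, and each column's correlation with the ratios of its own array ran from -0.760 to 0.719, so it was not used further.

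Background was corrected by normexp (offset 50) on mean intensities, followed by loess within arrays with control spots at weight 0, in limma 3.58.1 (with R 4.3.3 and version 1.17.8 of data.table). A probe was kept when its signal in either channel lay over 2 SD above the mean of 153 negative control spots on 3 or more arrays. One model was fitted to all 9 arrays (6 residual and 1.35 prior degrees of freedom), 1 coefficient per day, with Benjamini-Hochberg adjustment over 38823 probes and a threshold of 0.05. It was tested on simulated data. No fold is given where every spot of a group was at background. Channel levels are after Aquantile. The number of arrays limits the precision.

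The platform's symbols named 21790 probes with 1 gene each and left 22004 unnamed. Older symbols were matched through a RefSeq gene table (ARS-UCD2.0), used only for names. The rule named all probes of the set, up to 6 genes past the threshold per list and the 2 genes most like each factor. The factors, lists and tests were chosen with earlier results of these data known. Alternatives were no background correction, median centring, Aquantile, no or another dim filter, median pixels, the replicate block, eBayes trend and robust, array weights, only the arrays compared and leaving out each array. Added after seeing the data were the 120-day RNA set as a block, leaving out the 3 arrays with a macrophage median above 1, and the granulosa median as a covariate.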

Additional observations from a re-analysis of the deposited data

How the results depend on the processing

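Over 22 other settings, 29 of 792 ratios of the set took another sign, in 15 of the 36 reported ratios, none of which had passed the test as reported. Many of the 792 could not move. Aquantile, the dim filters, both blocks, eBayes trend and robust, and only the arrays compared leave each ratio as reported. Leaving out an array refits only the ratios of its own day. The 29 of 792 is therefore no measure of how stable the ratios are. TCF21 at 60 days stayed between 2.41 and 3.22 (adjusted p 0.00637 to 0.0585, limma) and passed in 20 of 22 settings. Aquantile repeated the reported fit exactly (limma, adjusted p = 0.00803). The settings reuse the same arrays, so the 20 are not separate tests. The count of probes passing at 60 days was 2 with array weights, 0 with only the arrays of the days compared, and 0 to 1 when each array was left out. The count of all probes passing at 60 days was 0 with only the arrays of the days compared, 7375 with array weights, 2614 without background correction, 611 with median pixels, 697 without the 3 macrophage-high arrays, 2371 with the granulosa covariate and 232 to 6449 when each array was left out. The counts of the set at 30 and 90 days and between days stayed at 0 in every setting run, while the count of all probes reached 3221 at 30 days and 755 at 90 days. Same-numbered arrays deviated together between 30 and 60 days (r = 0.34, 0.51 and 0.38) but mostly not with 90 days (r = -0.69 for replicate 1 of 30 and 90 days), with r above 0 in 4 of 9 pairs, so the numbers were not taken as pairs. Arrays of the same 120-day set had r above 0 in 8 of 9 pairs, and with that set as a block TCF21 at 60 days had an adjusted p of 0.0149. With the replicate block TCF21 at 60 days had an adjusted p of 0.0347 and the count of all probes was 1696. Ratios that turned were, without background correction, NR5A2 probe 3 (-0.040) and WT1 probe 3 (0.073) at 90 days, and with median centring LHX9 at 30 days (0.015). With median pixels they were LHX9 at 60 days (-0.13), and NR5A2 probe 3 (-0.37) and WT1 probe 3 (0.14) at 90 days. With array weights it was WT1 probe 3 at 90 days (0.071). Without each array in turn, the ranges were -0.023 to 0.79 (WT1 probe 1), -0.010 to 0.27 (TCF21) and -0.12 to 0.039 (WT1 probe 3) at 30 days. At 60 days they were -0.83 to 0.32 (NR0B1) and -0.17 to 0.018 (WT1 probe 1). At 90 days they were -0.11 to 0.85 (NR5A2 probe 1), -0.90 to 0.83 (probe 2), -0.20 to 0.25 (probe 3) and -0.21 to 0.12 (WT1 probe 3). Without the 3 macrophage-high arrays NR5A2 probes 2 and 3, GATA4 and LHX9 at 30 days were 0.42, 0.27, 0.39 and 0.033, and NR5A2 probe 2 and WT1 probe 3 at 90 days 0.83 and 0.028. With the granulosa covariate NR5A2 probes 2 and 3, WT1 probe 3 and LHX9 at 30 days were 0.16, 0.096, 0.013 and 0.019, GATA4 at 60 days -0.048 and NR5A2 probe 2 at 90 days 0.25. The cause of each turn was not tested. Signal over background limits FOXL2, LHX9, NR0B1 and WT1.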
